A study of Arabidopsis thaliana with 36 samples.

Results

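The comparison described here set Arabidopsis thaliana Col-0 leaves taken 30 min after a move to high light against Col-0 leaves taken just before it, at 0 min. It rested on 6 of the 36 RNA-Seq libraries of the study, 3 at each time, and on the 13817 of 37336 annotated genes that had at least 1 of the 36 readings above 7 RPKM (reads per kilobase of transcript, scaled to the reads of the library). The study followed the ecotypes Col-0 and WS from 0 to 240 min at 6 times, with 3 libraries in each of 12 groups. The 30 min leaves came from wild-type Col-0 plants held for 30 min at a photon flux density (PFD) of 500 μmol per m2 and s, and the 0 min leaves from wild-type Col-0 plants at the growth PFD of 120 μmol per m2 and s. Both groups shared hydroponic culture, a 12 h photoperiod and day and night temperatures of 23 and 20 °C. A single leaf was removed at each time from each of 3 plants of an ecotype while the plants stood in a gas exchange chamber. By this scheme the 0 min leaf was the first taken from a plant and the 30 min leaf the third. None of the 36 libraries is of a leaf held at the growth PFD past 0 min, so light, elapsed time, time of day, earlier leaf removal and the stay in the chamber cannot be told apart in this comparison. WS, which had its own 0 min leaves, serves below as a second ecotype measured in the same way.

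A leaf that is suddenly given more light can absorb more energy than carbon fixation can use. Within minutes, calcium, reactive oxygen and redox signals can change the transcription of stress genes. From its photosynthesis measurements and repair transcripts of photosystem II, the study judged light stress to be no significant factor in its experiments. Jasmonates are lipid hormones made from linolenic acid, first in the chloroplast and then in the peroxisome. Their active form, jasmonoyl-isoleucine, lets the receptor COI1 remove the JAZ proteins, which repress MYC transcription factors, and the JAZ genes are themselves targets of MYC factors. Wounding, touch and other stresses raise jasmonates within minutes. WRKY, ERF, ZAT and NAC proteins are families of transcription factors with many early stress-response members, CBF factors and COR genes act in cold and drought, and B-box (BBX) proteins act in light signalling and around the clock.

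The 6 libraries held between 21.8 and 30.4 M (mega) reads in genes, as recovered from the steps of the RPKM values. In the library at 30 min with the fewest reads, 1 read in a transcript of 1 kb was worth 0.0482 RPKM. The 0 min libraries lay close together, with correlations of log2(RPKM + 1) between 0.949 and 0.978, and each lay nearest to the mean of its own group. The 30 min libraries lay further apart, with correlations between 0.896 and 0.946. Replicate 1 lay nearest to the 30 min group, replicate 2 was closest to the 15 min group of its ecotype (root mean square distance 0.415, against 0.667 to the other 30 min libraries), and replicate 3 to the 60 min group (0.566, against 0.659). These 2 libraries are kept under their labels, and the main counts, those of the gene lists included, are given with and without the replicates. Of 5 leaf mesophyll markers, including RBCS1A and RCA, every one reached at least 2332 RPKM, and their summed level was 21182 to 38476 RPKM at 30 min and 30611 to 44595 RPKM at 0 min. The 4 root and 3 seed markers were under 1 RPKM in all 6 libraries, 3 and 2 of them at 0 throughout, so the libraries fitted the label leaf. Summed guard cell markers were 11.7 to 17.5 RPKM at 30 min and 24.6 to 30.3 RPKM at 0 min, and the groups did not overlap. Summed epidermis markers (9.86 to 14.5 RPKM at 30 min and 17.0 to 21.2 RPKM at 0 min) and markers of dividing cells (0.61 to 1.74 RPKM at 30 min and 2.2 to 3.76 RPKM at 0 min) were lower as well, again with groups that did not overlap, whereas phloem markers overlapped. These sums rest on few genes. Of 3 epidermis markers, 1 was tested, 1 was always under 1 RPKM, and the highest single reading was 20.8 RPKM. Of 3 markers of dividing cells, 0 were tested and 2 were always under 1 RPKM, 1 of them at 0 throughout. Their highest single reading was 3.25 RPKM. None of the 3 tested guard cell markers passed the test (MYB60 with log2 difference −0.93 and adjusted p = 0.052, KAT1 with −0.85 and 0.29, FAMA with −0.48 and 0.28), but MYB60 passed with a pseudocount of 0.1 (adjusted p = 0.0498), with the filter on the 6 libraries (0.0462), with median-of-ratios scaling (0.047) and in TPM (0.0444). In whole leaves, fewer cells of a type and less RNA per cell cannot be told apart, and the part of these shifts in the falls given below was not tested.

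In Col-0, 946 genes differed between 30 and 0 min, 702 higher and 244 lower at 30 min, at an adjusted p under 0.05 in limma's moderated test on log2(RPKM + 1). That is 6.85% of the genes tested, with 5.08% called higher and 1.77% called lower, and these are the shares against which counts of list members are set below. Among the called genes, the rises were larger than the falls. The median log2 difference was 2.04 among those called higher and −1.4 among those called lower, and the median of all genes was 0.03. By mean RPKM, 220 genes were more than 10-fold higher and 12 more than 10-fold lower. A gene near 0 RPKM at 0 min was tested only if another reading passed 7 RPKM, and how far this filter shaped the contrast was not tested. With no filter on low values, 604 genes were called higher and 328 lower. The groups of 3 did not overlap for 699 of the 702 higher and 238 of the 244 lower genes, whereas 26.2% of all genes tested had groups that did not overlap in either direction. Compared within each replicate number, 701 of the higher genes were higher and 242 of the lower genes lower in 3 of 3. The separation of the groups and these counts use the readings that gave the calls. They describe the called genes and are no separate evidence for them. The labels number the replicates without naming the plant, and the test was unpaired. Its p values rest on the spread between leaves within a group, pooled over all 36 libraries in 12 groups. Leaves of the same plant at different times entered it as independent. With the 6 libraries alone in the fit, 655 genes passed, and 579 with the Col-0 libraries alone. With the replicate number as a block, 1135 genes passed (819 higher, 316 lower). Below, the plant as a replicate block, or a plant left out, means the replicate number, which the labels do not tie to a plant.

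The size of the response differed between the 30 min leaves. Over the 702 higher genes, the median log2 difference from the 0 min mean was 1.75 in replicate 1, 1.63 in replicate 2 and 2.67 in replicate 3, and 582 of them had their highest 30 min reading in replicate 3. The count of calls followed this library: without the 30 min library of replicate 3, 276 genes passed (200 higher, 76 lower), of which 275 were among the 946, and without Col-0 replicate 3 at all times, 201 passed (122 higher, 79 lower). Without Col-0 replicate 2 at all times, 539 passed. Without the 30 min library of replicate 2, in contrast, 1045 genes passed. The counts without single 0 min libraries were 515, 550 and 712 for replicates 1, 2 and 3. On the recovered reads (voom), 612 genes passed and 63.2% of them were higher (387 higher, 225 lower), against 74.2% in RPKM.

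**Figure D1:**
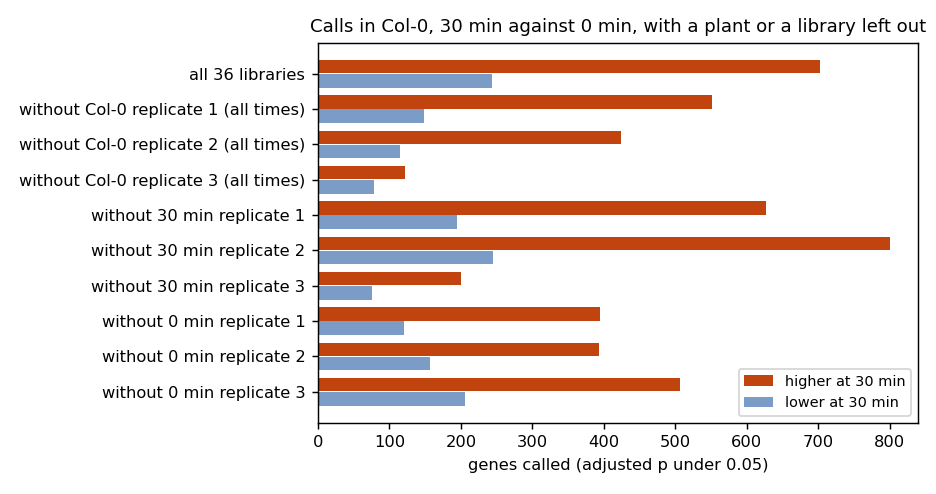
Number of genes called higher (red) and lower (blue) in Col-0 at 30 min against 0 min, with all 36 libraries in the fit, without all libraries of 1 Col-0 replicate number, and without 1 library. The shortest bars are those without replicate 3 (122 higher and 79 lower) and without its 30 min library (200 higher and 76 lower).

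Short promoter stretches are shown first for members of the gene lists, because the letters of known elements could be counted in the same window for every gene. Levels are given below for each of these genes but WRKY33, which is shown as a list member only. Promoters were taken as the 250 bases before and 50 bases after the annotated start in the RefSeq copy of TAIR10 (TAIR10.1), for 37049 genes, of which 13738 were tested. The CGCG box, written here as ACGCGT or ACGCGG, is the element bound by calmodulin-binding CAMTA factors. It was found on either strand in 18.1% of the 702 promoters of genes called higher, in 1.23% of the 244 promoters of genes called lower, in 5.17% of tested genes and in 4.24% of all promoters. Stretches around it are shown for 2 JAZ genes, a MYB gene and a touch gene that rose, with the element in capitals, 5′ to 3′ along the strand of the gene:
JAZ1 (chr1:6621617-6621682, plus strand): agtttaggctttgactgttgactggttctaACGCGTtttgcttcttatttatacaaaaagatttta
JAZ5 (chr1:5957706-5957761, minus strand): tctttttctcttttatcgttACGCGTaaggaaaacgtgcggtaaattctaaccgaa
MYB44 (chr5:26853841-26853906, plus strand): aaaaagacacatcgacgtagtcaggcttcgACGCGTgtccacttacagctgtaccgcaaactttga
TCH2 (chr5:14999648-14999732, minus strand): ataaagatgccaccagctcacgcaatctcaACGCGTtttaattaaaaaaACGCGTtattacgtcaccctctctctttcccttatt
The TCH2 stretch holds 2 copies, which begin 83 and 64 bases before the start.

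The G-box CACGTG, the core that MYC and other bHLH and bZIP factors bind, was in 17.7% of the promoters of higher genes, 6.56% of those of lower genes, 9.63% of those tested and 6.53% of all. Within the jasmonate synthesis and JAZ lists, 7 of 27 promoters held it in this window, and those of JAZ1, OPR3 and LOX3 did not. It is shown in capitals in 2 JAZ promoters:
JAZ7 (chr2:14572966-14573029, plus strand): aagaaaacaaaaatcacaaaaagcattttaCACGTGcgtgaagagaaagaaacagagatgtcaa
JAZ2 (chr1:28150477-28150542, minus strand): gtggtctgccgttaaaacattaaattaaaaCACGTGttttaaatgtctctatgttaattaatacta
The CRT/DRE core CCGAC, which CBF and other DREB factors bind, was in 24.4% of promoters of higher genes, 9.02% of those of lower genes, 16.9% of those tested and 15.4% of all. It is shown in capitals, as CCGAC or its complement GTCGG, for RD29A and COR15A, 2 of the 3 genes among the 11 of the CBF and cold-regulated list that held it in this window:
RD29A (chr5:21240547-21240716, plus strand): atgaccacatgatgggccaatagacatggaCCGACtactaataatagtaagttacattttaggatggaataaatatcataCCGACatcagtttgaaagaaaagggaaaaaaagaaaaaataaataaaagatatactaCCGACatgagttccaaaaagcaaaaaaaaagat
COR15A (chr2:17712375-17712502, minus strand): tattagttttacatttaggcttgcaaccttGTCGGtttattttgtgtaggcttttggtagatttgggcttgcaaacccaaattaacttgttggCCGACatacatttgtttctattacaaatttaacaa
The W-box core TTGAC, bound by WRKY factors, is short and was common, in 63.8% of promoters of higher genes, 46.7% of those of lower genes, 50.5% of those tested and 49.5% of all. Of the 39 promoters in the WRKY and ERF lists, 29 held it (74.4%), among them WRKY33, where it reads GTCAA on the strand shown:
WRKY33 (chr2:16108110-16108234, plus strand): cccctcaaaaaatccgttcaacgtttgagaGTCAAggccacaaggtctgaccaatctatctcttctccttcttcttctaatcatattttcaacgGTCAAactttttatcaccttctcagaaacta
The shares were 2.99, 1.23, 2.84 and 2.74% for the GCC box GCCGCC in higher, lower, tested and all promoters, 15.2, 9.84, 11.4 and 11.4% for GAANNTTC, the core of the heat shock element, and 6.13, 2.05, 3.23 and 2.51% for the evening element AAAATATCT. All motifs were searched on both strands, the G-box and ACGCGT read the same on both, and none of the motifs contains another. A match describes the letters only, and the shares were not tested.

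The 3 jasmonate lists had the largest median log2 differences of the 36 lists examined. Of 14 tested genes of jasmonate synthesis, 11 were higher and none was lower at 30 min, with a median log2 difference of 3.82 over the 14. Of 12 tested JAZ genes, 10 were higher (median 4.39), and of 10 genes of jasmonate inactivation and output, 7 were higher (median 4.44). The background was 5.08% called higher. Of the 16 genes with the largest rises by the naming rule, JAZ1, OPR3, JAZ7, LOX3, AOC3, LOX4, JAZ5 and VSP2 belong to these processes, and so does AT3G22275, annotated as a JAZ-domain protein. In the following, readings are given in the order of replicates 1, 2 and 3.

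The enzymes are described in the order in which they act. LOX3 encodes a 13-lipoxygenase, which oxygenates linolenic acid in the first step, and had 234, 125 and 826 RPKM at 30 min, against 3.92, 3.92 and 3.72 RPKM at 0 min (log2 difference 5.90 ± 0.97 SE, adjusted p = 0.00046). LOX4, a further 13-lipoxygenase, had 192, 64.2 and 437 RPKM at 30 min, against 3.21, 1.73 and 3.32 RPKM at 0 min (log2 difference 5.59 ± 0.96 SE, adjusted p = 0.00064). Both were under 4 RPKM before the move in all leaves and at 64.2 RPKM or more in all 30 min leaves. LOX2, the abundant lipoxygenase of leaves, had 813, 415 and 1565 RPKM at 30 min, against 156, 115 and 132 RPKM at 0 min (log2 difference 2.59 ± 0.58 SE, adjusted p = 0.0052), and was thus well expressed before the move. Allene oxide synthase (AOS) had 805, 486 and 1963 RPKM at 30 min, against 125, 166 and 125 RPKM at 0 min (log2 difference 2.73 ± 0.65 SE, adjusted p = 0.0084). Allene oxide cyclase forms the ring of the hormone. AOC3 had 38.9, 61.1 and 284 RPKM at 30 min, against 0.56, 0.13 and 1.1 RPKM at 0 min (log2 difference 5.85 ± 0.93 SE, adjusted p = 0.00035). The near-identical neighbours AOC1 and AOC2 also passed, with log2 differences of 5.15 and 4.47, but reads can be split between such copies and their single values are uncertain. AOC4 had 26.9, 18.8 and 23.4 RPKM at 30 min, against 11.7, 14.3 and 10.4 RPKM at 0 min and did not pass (adjusted p = 0.079).

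OPR3 encodes the peroxisomal reductase of the jasmonate precursor OPDA, lies at chr2:2359114-2362375 (TAIR10.1) and showed the largest rise among the enzymes. It had 801, 262 and 1751 RPKM at 30 min, against 9.08, 7.06 and 11.8 RPKM at 0 min (log2 difference 6.15 ± 0.84 SE, adjusted p = 8.4e-05), and the lowest 30 min leaf was far above the highest 0 min leaf. OPCL1, which activates the precursor with coenzyme A, had 252, 114 and 443 RPKM at 30 min, against 8.3, 9.55 and 9.76 RPKM at 0 min (log2 difference 4.52 ± 0.71 SE, adjusted p = 0.00032). ACX1, an acyl-CoA oxidase of the following beta-oxidation, had 139, 72.5 and 315 RPKM at 30 min, against 29.4, 25 and 29.9 RPKM at 0 min (log2 difference 2.35 ± 0.67 SE, adjusted p = 0.03). JAR1, which joins jasmonate to isoleucine, had 126, 103 and 479.8 RPKM at 30 min, against 19.7, 13.2 and 28.9 RPKM at 0 min (log2 difference 3.16 ± 0.80 SE, adjusted p = 0.014). In each of these genes replicate 3 was the highest and replicate 2 the lowest of the 30 min leaves. The groups did not overlap, which the naming rule required of OPR3. LOX2, AOS, AOC1, AOC2, AOC4, ACX1 and JAR1 lay outside the naming rule and were added, after their values had been seen, to fill in the pathway. LOX6 and KAT2, the remaining members of the list, did not pass and are neither given by value nor drawn. Without Col-0 replicates 1, 2 and 3, the synthesis genes called higher numbered 11, 9 and 5.

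JAZ1 had the largest rise of all genes named, with 381, 136 and 1017 RPKM at 30 min, against 1.35, 2.53 and 4.02 RPKM at 0 min (log2 difference 6.76 ± 0.87 SE, adjusted p = 5.5e-05). The gene lies at chr1:6621777-6623668. JAZ7 was listed at or near 0 before the move and had 99.8, 9.02 and 310.1 RPKM at 30 min, against 0, 0.11 and 0.05 RPKM at 0 min (log2 difference 6.01 ± 1.25 SE, adjusted p = 0.0031). JAZ5 had 74.3, 27.2 and 165 RPKM at 30 min, against 0.69, 0.24 and 1.73 RPKM at 0 min (log2 difference 5.31 ± 0.95 SE, adjusted p = 0.0009). Within each of these genes the 30 min leaves spanned a wide range, and all of them lay above every 0 min leaf, as the naming rule required. JAZ2 had 337, 85.5 and 662 RPKM at 30 min, against 14, 11.2 and 10.9 RPKM at 0 min (log2 difference 4.37 ± 0.80 SE, adjusted p = 0.0011), and JAZ9, the JAZ gene with the highest level at 0 min, had 1820, 713 and 1998 RPKM at 30 min, against 108, 69 and 169 RPKM at 0 min (log2 difference 3.65 ± 0.64 SE, adjusted p = 0.00072). AT3G22275 had 96, 22.8 and 151 RPKM at 30 min, against 0.39, 0.16 and 1.38 RPKM at 0 min (log2 difference 5.49 ± 1.21 SE, adjusted p = 0.0046). The members called higher also included JAZ6, JAZ8, JAZ10 and JAZ12, added after their values had been seen, with log2 differences of 3.35, 4.65, 4.40 and 1.98. The list members that did not pass were JAZ3, at 42.4, 17.5 and 74.7 RPKM at 30 min, against 5.82, 11.7 and 6.1 RPKM at 0 min (adjusted p = 0.052, or 0.0375 with the plant as a replicate block), and JAZ11, at 5.16, 5.39 and 5.54 RPKM at 30 min, against 5.34, 5.58 and 4.26 RPKM at 0 min (adjusted p = 0.94). Without replicates 1, 2 and 3, 8, 9 and 3 JAZ genes were called higher.

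Genes that remove the active hormone were higher in the same leaves. CYP94C1, a cytochrome P450 that oxidises jasmonoyl-isoleucine, had 46.2, 9.75 and 147 RPKM at 30 min, against 0.13, 1.04 and 0.2 RPKM at 0 min (log2 difference 4.91 ± 0.95 SE, adjusted p = 0.0019). IAR3 and ILL6 encode amidohydrolases, which split amino acid conjugates. IAR3 had 303, 78 and 1014 RPKM at 30 min, against 8.21, 10.6 and 14.6 RPKM at 0 min (log2 difference 4.61 ± 0.93 SE, adjusted p = 0.0026), and ILL6 had 81.7, 20.3 and 342 RPKM at 30 min, against 1.05, 2.43 and 2.22 RPKM at 0 min (log2 difference 4.90 ± 1.05 SE, adjusted p = 0.0041). In both, replicate 3 was the highest and replicate 2 the lowest at 30 min. CYP94B1, which acts on the same substrate as CYP94C1, had 26.6, 2 and 126 RPKM at 30 min, against 0.04, 0.26 and 0.19 RPKM at 0 min and did not pass, although the groups did not overlap (adjusted p = 0.081, or 0.0248 with a pseudocount of 0.1). CYP94B3, a further enzyme of this kind, had 6.28, 13.3 and 76.6 RPKM at 30 min, against 0.07, 0 and 0.06 RPKM at 0 min and did not pass either (adjusted p = 0.11, 0.039 with the plant as a replicate block and 0.0194 with a pseudocount of 0.1). VSP2, a vegetative storage protein and a late output of the pathway, had 136, 18.6 and 179 RPKM at 30 min, against 1.47, 1.17 and 0.76 RPKM at 0 min (log2 difference 5.22 ± 0.96 SE, adjusted p = 0.0012); reads may be shared with its close copy VSP1. Without replicate 3, 1 gene of this list was called higher, against 8 and 7 without replicates 1 and 2. With voom on the recovered reads, 10 synthesis, 5 JAZ and 3 inactivation and output genes were called higher.

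**Figure D2:**
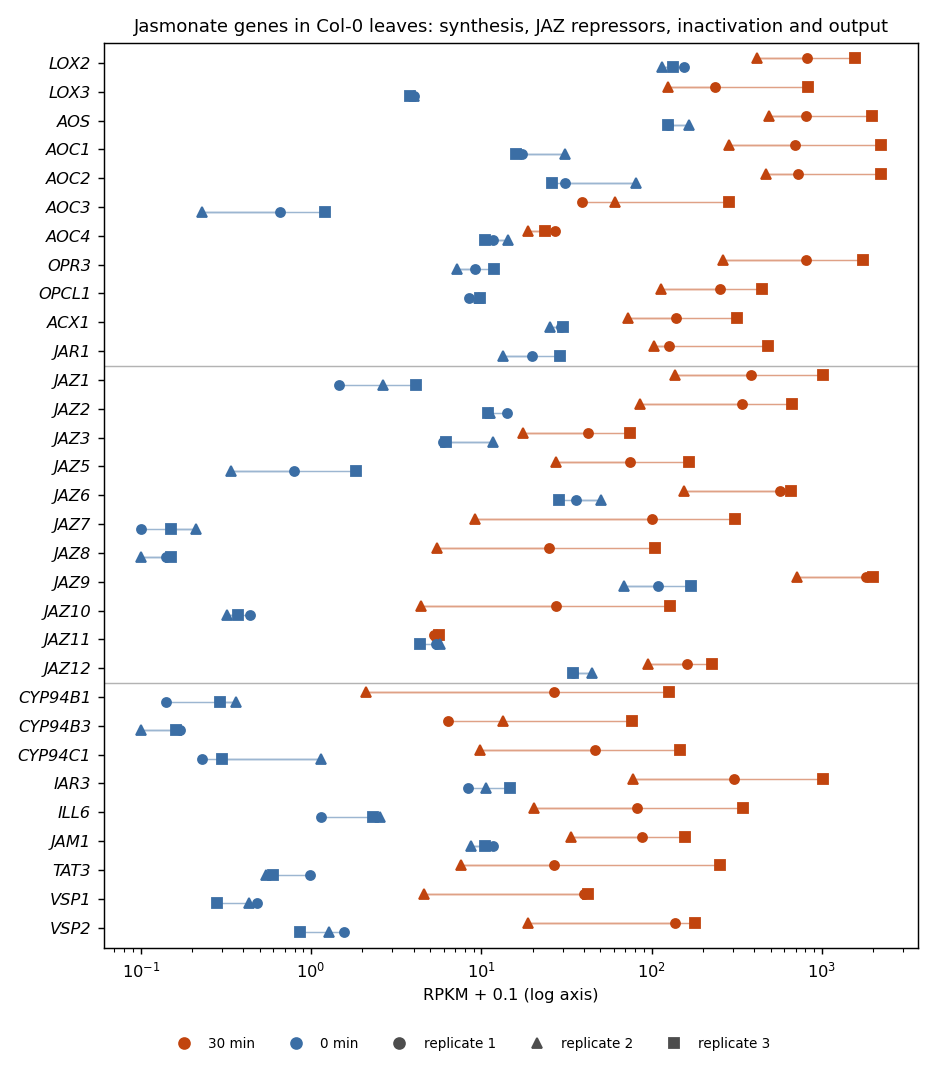
RPKM + 0.1 (log axis) of jasmonate genes in the 3 Col-0 leaves at 30 min (red) and the 3 at 0 min (blue), with the symbol giving the replicate number; grey lines part synthesis, JAZ repressors, and inactivation and output. In most rows the red symbols lie right of all blue ones with replicate 3 furthest right, as for JAZ1 with 381, 136 and 1017 RPKM at 30 min, against 1.35, 2.53 and 4.02 RPKM at 0 min, and JAZ11 is the exception in which they overlap.

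Among the other genes with the largest rises, AT5G05600, annotated as a 2-oxoglutarate and Fe(II)-dependent oxygenase, had 137, 32.1 and 333 RPKM at 30 min, against 0.77, 0.35 and 1.63 RPKM at 0 min (log2 difference 5.96 ± 1.06 SE, adjusted p = 0.00085). AT3G51450, annotated as a calcium-dependent phosphotriesterase, had 319, 89 and 582 RPKM at 30 min, against 3.18, 3.1 and 3.25 RPKM at 0 min (log2 difference 5.94 ± 0.90 SE, adjusted p = 0.00021). NUDT8, a nudix hydrolase, had 132, 52.2 and 379 RPKM at 30 min, against 0.72, 6.95 and 0.36 RPKM at 0 min (log2 difference 5.71 ± 0.91 SE, adjusted p = 0.00035). In all of them replicate 2 was the lowest of the 30 min leaves. DIP2, annotated as an E3 ubiquitin ligase, had 492, 119.9 and 565 RPKM at 30 min, against 3.69, 1.57 and 17.7 RPKM at 0 min (log2 difference 5.73 ± 1.19 SE, adjusted p = 0.0032). FBS1, an F-box protein gene, had 95.8, 135 and 321 RPKM at 30 min, against 3.84, 0.61 and 6.81 RPKM at 0 min (log2 difference 5.36 ± 0.85 SE, adjusted p = 0.00035). In both, replicate 3 was the highest at 0 min as well.

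Many transcription factor genes of the early stress response were higher at 30 min, where 5.08% of all genes tested were. Of 19 tested stress WRKY genes, 11 were higher and none was lower (median log2 difference 1.66), and of 17 tested ERF genes of the fast response, 9 were higher and none was lower (median 2.66). WRKY18 had 168, 105 and 618 RPKM at 30 min, against 2.32, 3.91 and 4.6 RPKM at 0 min (log2 difference 5.63 ± 0.83 SE, adjusted p = 0.00017), and WRKY40, whose product acts with it in defence, had 33, 19.9 and 271 RPKM at 30 min, against 0.65, 0.27 and 0.42 RPKM at 0 min (log2 difference 5.33 ± 1.13 SE, adjusted p = 0.0037). Most of the summed WRKY40 reading at 30 min came from replicate 3. WRKY11, WRKY15 and WRKY25 rose less but more evenly. WRKY11 had 28.9, 40.2 and 30.5 RPKM at 30 min, against 5.91, 6.43 and 6.62 RPKM at 0 min (log2 difference 2.21 ± 0.31 SE, adjusted p = 9.7e-05), WRKY15 had 41.4, 46.9 and 80.5 RPKM at 30 min, against 7.36, 7.56 and 8.59 RPKM at 0 min (log2 difference 2.64 ± 0.44 SE, adjusted p = 0.00056), and WRKY25 had log2 difference 2.42 (adjusted p = 0.0023). Without replicates 1, 2 and 3, the WRKY genes called higher numbered 10, 5 and 3.

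ORA47, an ERF that activates jasmonate synthesis genes, had 81.4, 12.6 and 61.3 RPKM at 30 min, against 0.36, 0.4 and 0.43 RPKM at 0 min (log2 difference 4.88 ± 0.86 SE, adjusted p = 0.00081). ERF11, a repressor, had 23.52, 21.8 and 67.8 RPKM at 30 min, against 0.54, 0.07 and 0.59 RPKM at 0 min (log2 difference 4.62 ± 0.87 SE, adjusted p = 0.0014). CEJ1, a DREB-type repressor, had 17.1, 7.91 and 111 RPKM at 30 min, against 0.04, 0.55 and 0.04 RPKM at 0 min (log2 difference 4.46 ± 0.90 SE, adjusted p = 0.0026). ERF1A, an activator at GCC boxes, had 119, 6.56 and 203 RPKM at 30 min, against 1, 2.01 and 1.14 RPKM at 0 min (log2 difference 4.60 ± 1.09 SE, adjusted p = 0.0084), and its replicate 2 lay nearer to the 0 min leaves than to the others at 30 min. RRTF1, an ERF that the study singles out, was listed at 0 in all 3 leaves at 0 min and at 11.3, 2.54 and 40.5 RPKM at 30 min (adjusted p = 0.027). The ERF genes called higher numbered 5, 6 and 1 without replicates 1, 2 and 3.

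All 7 ZAT and AZF zinc finger genes but 1 had a higher mean log2 level at 30 min, and 3 of the 7 passed (median 1.87). ZAT10, ZAT6 and ZAT12 had log2 differences of 4.3, 3.75 and 3.09. ZAT10 had 46.5, 32.2 and 94.9 RPKM at 30 min, against 1.85, 0.34 and 4.22 RPKM at 0 min (adjusted p = 0.0067). Of 13 tested NAC genes, 4 were higher (median 1.15). NAC072, known as RD26 and induced by drought and jasmonate, had 163, 38.2 and 419 RPKM at 30 min, against 4.28, 5.75 and 3.78 RPKM at 0 min (log2 difference 4.65 ± 1.09 SE, adjusted p = 0.0078), NAC019 had 33.1, 9.24 and 178 RPKM at 30 min, against 0.48, 0.23 and 0.41 RPKM at 0 min (log2 difference 4.86 ± 1.15 SE, adjusted p = 0.0084), and ATAF1 had 43.8, 36.1 and 66.6 RPKM at 30 min, against 13.3, 5.07 and 12.5 RPKM at 0 min (log2 difference 2.2 ± 0.47 SE, adjusted p = 0.0041). ATAF2 also passed (log2 difference 2.03). Without replicates 1, 2 and 3, the ZAT and AZF genes called higher numbered 1, 2 and 0 and the NAC genes 3, 3 and 0. Of 6 tested MYB genes, 3 were higher (median 2.44). MYB44, a regulator of stress and abscisic acid responses, had 289, 163 and 492 RPKM at 30 min, against 14.7, 10.2 and 17 RPKM at 0 min (log2 difference 4.29 ± 0.76 SE, adjusted p = 0.00085), and MYB73 and MYB96 had log2 differences of 3.07 and 1.96. The MYB genes called higher numbered 2, 2 and 1 without replicates 1, 2 and 3. With voom on the recovered reads, 4 WRKY, 1 ERF, 0 ZAT and AZF, 3 NAC and 1 MYB gene were called higher.

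Genes known from cold and drought differed less between the 30 min leaves than the jasmonate genes. Of 11 tested CBF and cold-regulated genes, 5 were higher and none was lower, where 5.08% of all genes tested were higher and 1.77% lower. All 11 had 30 min readings above every 0 min reading, as had 2383 of all 13817 genes. The median log2 difference over the 11 was 2.28. ERD10, a dehydrin gene, had 763, 879.7 and 1424 RPKM at 30 min, against 105, 64.4 and 100.1 RPKM at 0 min (log2 difference 3.47 ± 0.49 SE, adjusted p = 0.0001). RD29A, a stress-induced gene whose promoter stretch above holds several CRT/DRE cores, had 118, 251 and 148 RPKM at 30 min, against 19.9, 11.6 and 11 RPKM at 0 min (log2 difference 3.49 ± 0.64 SE, adjusted p = 0.001). COR15A, which encodes a chloroplast protein that protects membranes, had 383, 297 and 192 RPKM at 30 min, against 74.2, 46.7 and 45.9 RPKM at 0 min (log2 difference 2.35 ± 0.57 SE, adjusted p = 0.0095). At 30 min, replicate 1 was the lowest in ERD10 and RD29A and replicate 3 in COR15A, where replicate 2 was the lowest in most jasmonate genes. COR47, a further dehydrin gene, had 146, 187 and 251 RPKM at 30 min, against 24.8, 34.5 and 24.7 RPKM at 0 min (log2 difference 2.74 ± 0.58 SE, adjusted p = 0.0036). Over the list, the median log2 difference from the 0 min mean was 2.16, 2.44 and 1.81 in replicates 1, 2 and 3, where it was 4.56, 2.67 and 6.11 over the JAZ genes. The genes called higher numbered 5, 3 and 2 without replicates 1, 2 and 3.

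Touch and calcium genes gave 4 calls of 15 tested, all higher (median 0.97), where 5.08% of all genes tested were called higher. TCH2, a calmodulin-like gene, had 72.2, 67.9 and 81.5 RPKM at 30 min, against 18.1, 20.4 and 27.1 RPKM at 0 min (log2 difference 1.73 ± 0.33 SE, adjusted p = 0.0018), with 30 min leaves that lay close together. TCH3 had 67.2, 133 and 221 RPKM at 30 min, against 20.8, 11 and 27 RPKM at 0 min (log2 difference 2.71 ± 0.57 SE, adjusted p = 0.0033), and CML38 had 15.8, 30.4 and 93.7 RPKM at 30 min, against 0.14, 0.13 and 0 RPKM at 0 min (log2 difference 5.08 ± 1.01 SE, adjusted p = 0.0023). AT3G01830, annotated as an EF-hand protein, passed with log2 difference 3.34. The touch and calcium genes called higher numbered 4, 4 and 1 without replicates 1, 2 and 3, and 2 with voom. Of 15 kinase, phosphatase and early defence genes, 4 were higher (median 1.4): NHL3, a gene of the NDR1/HIN1-like family, AP2C1, a phosphatase that acts on stress MAP kinases, and the U-box ubiquitin ligase genes PUB23 and PUB24, with log2 differences of 1.79, 2.85, 2.25 and 1.99. With the plant as a replicate block, PUB24 missed the threshold (adjusted p = 0.0522). The list gave 2, 0 and 0 higher calls without replicates 1, 2 and 3, 2 with no filter on low values and 1 with voom. Of 8 marker genes of singlet oxygen and of signals from organelles, 2 were higher, NDB2 (a mitochondrial alternative NADH dehydrogenase, log2 difference 1.86, adjusted p = 0.018) and OM66 (an outer mitochondrial membrane protein, 1.99, adjusted p = 0.044). Without replicates 1, 2 and 3, the count was 3, 0 and 0, and it was 1 in TPM, with no filter and with voom. AOX1A, the alternative oxidase, had 38.2, 37 and 33 RPKM at 30 min, against 20.4, 16.2 and 17.9 RPKM at 0 min and missed the threshold with groups that did not overlap (adjusted p = 0.054, or 0.0496 with a pseudocount of 0.1).

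Other hormone lists showed fewer calls than the jasmonate lists. For abscisic acid, 2 of 15 genes were higher, where 5.08% of all genes tested were. The median was 0.76, where that of all genes was 0.03. The count for abscisic acid was 4 with the plant as a replicate block, and 3, 2 and 0 without replicates 1, 2 and 3. NCED3, the rate-limiting enzyme of its synthesis under stress, had 26.3, 24 and 43.7 RPKM at 30 min, against 1.61, 2.52 and 3.01 RPKM at 0 min (log2 difference 3.23 ± 0.66 SE, adjusted p = 0.0027), and the second was NAC072, given above. HAI1, a phosphatase induced by the hormone, had 16.6, 9.32 and 36.4 RPKM at 30 min, against 0.85, 0.47 and 0.42 RPKM at 0 min and did not pass (adjusted p = 0.052, or 0.0164 with the block). None of 15 ethylene genes passed (median 0.15). The synthase gene ACS6 had 12.4, 21.6 and 17.9 RPKM at 30 min, against 6.38, 9.43 and 7.62 RPKM at 0 min (adjusted p = 0.45).

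**Figure D3:**
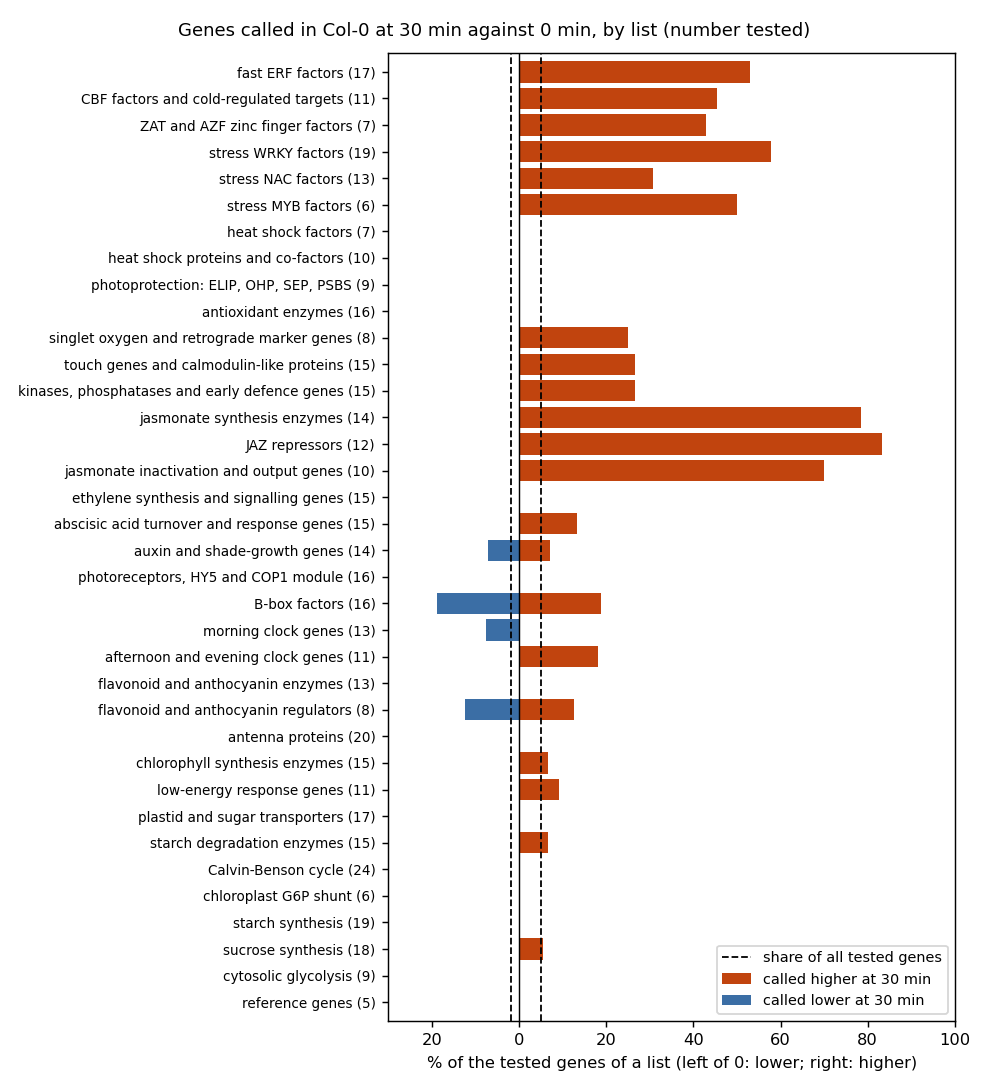
Share of the tested genes of each list (number tested in parentheses) that were called higher (red, right of 0) or lower (blue, left of 0) in Col-0 at 30 min against 0 min, with dashed lines at the shares over all genes tested (5.08% higher, 1.77% lower). The JAZ repressors (10 of 12) and jasmonate synthesis enzymes (11 of 14) had the longest bars, and heat shock, antioxidant, antenna and Calvin-Benson cycle lists had none.

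No gene of the heat shock lists passed, of 7 factors and 10 chaperones or co-factors tested, and the 30 min leaves differed from each other in them. One chaperone or co-factor gene was called higher with a pseudocount of 0.1, in TPM and without replicate 2 at all times, and without the 30 min library of replicate 2, 1 factor and 3 chaperones or co-factors were. HSFA2, a heat shock factor induced by heat and high light, had 119.8, 5.62 and 48.8 RPKM at 30 min, against 9, 1.87 and 24 RPKM at 0 min (adjusted p = 0.24). HSP70 (AT3G12580) had 136, 8.28 and 79.5 RPKM at 30 min, against 15, 5.77 and 28.3 RPKM at 0 min (adjusted p = 0.39), and HSP90.1 had 89.8, 3.32 and 52.8 RPKM at 30 min, against 6.39, 4 and 16.4 RPKM at 0 min (adjusted p = 0.35). In all 3, replicates 1 and 3 at 30 min exceeded every 0 min leaf and replicate 2 lay within the 0 min range or below it. Over the 10 chaperones and co-factors, the median log2 difference from the 0 min mean was 1.96, −0.52 and 1.18 in replicates 1, 2 and 3. None of the 9 photoprotection genes passed either (median −0.22). ELIP1, which encodes an early light-induced protein, had 59.6, 16.8 and 10.2 RPKM at 30 min, against 59.9, 16.4 and 80.2 RPKM at 0 min (adjusted p = 0.55), with overlapping groups. Of 16 antioxidant enzyme genes, none passed (median 0.03), and APX3, a peroxisomal ascorbate peroxidase, had 224, 179 and 169 RPKM at 30 min, against 177, 152 and 147 RPKM at 0 min (adjusted p = 0.42).

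The 10 largest falls by the naming rule were those of 2 B-box genes, HBI1 and 7 genes known by their identifiers. AT5G19190, an uncharacterised gene at chr5:6457026-6458504, had 4.19, 4.45 and 1.7 RPKM at 30 min, against 77, 143 and 31.9 RPKM at 0 min (log2 difference −4.08 ± 0.61 SE, adjusted p = 0.00019), the largest fall. BBX14, a B-box factor at chr1:25708175-25710989, had 6.49, 5.47 and 6.46 RPKM at 30 min, against 95.2, 133 and 27.8 RPKM at 0 min (log2 difference −3.33 ± 0.54 SE, adjusted p = 0.00037), and the 30 min leaves lay close together. BBX15 had 48, 50.4 and 15.8 RPKM at 30 min, against 290.5, 231 and 182 RPKM at 0 min (log2 difference −2.73 ± 0.54 SE, adjusted p = 0.0021). Of 16 tested B-box genes, 3 were lower and 3 were higher, against 1.77% and 5.08% of all genes, and the median log2 difference was −0.51. The third to fall was BBX21 (log2 difference −1.02, adjusted p = 0.03). The 3 that rose were BBX29, BBX30 and BBX31, which belong to the members with a single B-box. BBX29 had 52.2, 46.2 and 67.8 RPKM at 30 min, against 12.8, 11.6 and 17.1 RPKM at 0 min (log2 difference 1.93 ± 0.49 SE, adjusted p = 0.013) and BBX31 had 183, 106 and 215 RPKM at 30 min, against 27.5, 5.8 and 50.4 RPKM at 0 min (log2 difference 2.92 ± 0.77 SE, adjusted p = 0.018). BBX21 and BBX30 (log2 difference 2.21) were named after their values had been seen. Without replicates 1, 2 and 3, the B-box genes called higher numbered 1, 0 and 1 and those called lower 3, 2 and 2.

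AT4G38860, a gene of the auxin-responsive SAUR family, had 13.5, 34.5 and 4.86 RPKM at 30 min, against 116, 206 and 91.4 RPKM at 0 min (log2 difference −3.18 ± 0.79 SE, adjusted p = 0.012). AT5G07580, annotated as an ethylene-responsive transcription factor, had 6.7, 14.4 and 2.48 RPKM at 30 min, against 52.2, 90.7 and 61 RPKM at 0 min (log2 difference −3.17 ± 0.76 SE, adjusted p = 0.009). HBI1, a bHLH factor that promotes cell elongation, had 3.73, 7.21 and 3.51 RPKM at 30 min, against 23.54, 104 and 16.1 RPKM at 0 min (log2 difference −2.66 ± 0.76 SE, adjusted p = 0.03). In these genes replicate 2 was the highest at both times. AT1G11700, annotated as a senescence regulator of unknown function, had 12.6, 9.36 and 4.11 RPKM at 30 min, against 56.3, 47.9 and 68.1 RPKM at 0 min (log2 difference −2.69 ± 0.62 SE, adjusted p = 0.0066). AT1G06273 had 3.64, 5.88 and 2.94 RPKM at 30 min, against 39.5, 31.3 and 24.3 RPKM at 0 min (log2 difference −2.68 ± 0.45 SE, adjusted p = 0.00062), and AT5G02515 had 1.12, 1.68 and 0.19 RPKM at 30 min, against 12.2, 30.4 and 8.8 RPKM at 0 min (log2 difference −3.08 ± 0.59 SE, adjusted p = 0.0018). Neither carries a described product in the annotation used. AT5G61590, annotated as a DNA-binding protein of the AP2 type, had 0.27, 0.46 and 0.22 RPKM at 30 min, against 3.69, 38.8 and 2.38 RPKM at 0 min (log2 difference −2.71 ± 0.82 SE, adjusted p = 0.044), with most of its 0 min level in replicate 2.

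Counts for light reception and the clock are set against 5.08% of all genes called higher and 1.77% called lower, and no list was tested against these shares. None of 16 genes of photoreceptors, HY5 and COP1 passed. The blue light receptor gene CRY1 had 39.7, 33.2 and 32.5 RPKM at 30 min, against 59, 102 and 44.4 RPKM at 0 min (adjusted p = 0.14, or 0.038 without replicate 3), with groups that did not overlap, and HY5 had 52.1, 35.6 and 39.9 RPKM at 30 min, against 21.5, 9.24 and 48 RPKM at 0 min (adjusted p = 0.28), with groups that did. PIF1, a bHLH factor removed by phytochrome, fell with 2.79, 2.1 and 2.03 RPKM at 30 min, against 7.42, 12.2 and 4.72 RPKM at 0 min (log2 difference −1.39 ± 0.36 SE, adjusted p = 0.018). IAA6, an auxin-induced repressor, rose with 12.2, 33.2 and 16.1 RPKM at 30 min, against 3.23, 3.31 and 2.04 RPKM at 0 min (log2 difference 2.37 ± 0.48 SE, adjusted p = 0.0027). They were the calls among 14 auxin and shade genes, where 2 were higher with the plant as a replicate block. Those called higher numbered 1, 0 and 0 without replicates 1, 2 and 3, and those called lower 0, 0 and 0. Of 13 morning clock genes, RVE1 was lower, with 8.19, 4.2 and 6.44 RPKM at 30 min, against 35.1, 15.3 and 35.2 RPKM at 0 min (log2 difference −1.97 ± 0.50 SE, adjusted p = 0.013). The call was lost without replicate 2, with a pseudocount of 0.1 and in other fits. Of 11 afternoon and evening genes, TOC1, a repressor of the morning genes, was higher with 3.49, 5.54 and 5.35 RPKM at 30 min, against 1.1, 1.55 and 1.38 RPKM at 0 min (log2 difference 1.29 ± 0.39 SE, adjusted p = 0.041), and LKP2, a blue light receptor of the clock, was higher with 9.82, 8.53 and 15 RPKM at 30 min, against 5.37, 7.09 and 7.02 RPKM at 0 min (log2 difference 0.67 ± 0.20 SE, adjusted p = 0.045). Neither call was firm. The evening genes called higher numbered 0 without replicate 1, 2 or 3, with no filter on low values, in TPM and with voom, and LKP2 also missed the threshold with a pseudocount of 0.1 (adjusted p = 0.0508) and median-of-ratios scaling (0.0522).

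**Figure D4:**
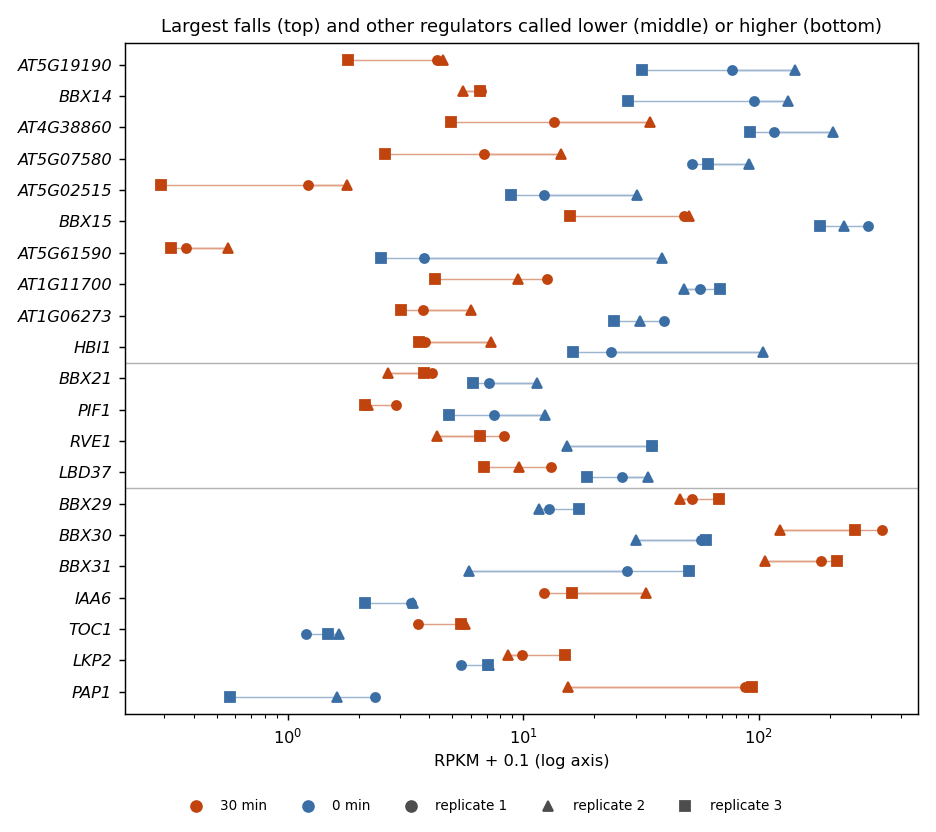
RPKM + 0.1 (log axis) in the 3 Col-0 leaves at 30 min (red) and the 3 at 0 min (blue) for the 10 largest falls (top), for other regulators called lower (middle) and for regulators called higher (bottom). BBX14 had 6.49, 5.47 and 6.46 RPKM at 30 min, against 95.2, 133 and 27.8 RPKM at 0 min. In every row the groups lay apart, which the naming rule required of the 10 largest falls.

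In the flavonoid pathway, no gene of 13 tested enzymes passed (median −0.82), while PAP1, a MYB factor that activates anthocyanin genes, had 87.3, 15.3 and 93.1 RPKM at 30 min, against 2.24, 1.52 and 0.47 RPKM at 0 min (log2 difference 4.49 ± 0.89 SE, adjusted p = 0.0023). LBD37, a repressor of those genes, had 13.1, 9.46 and 6.72 RPKM at 30 min, against 26.2, 33.9 and 18.6 RPKM at 0 min (log2 difference −1.34 ± 0.40 SE, adjusted p = 0.037). PAP1 did not pass without replicate 3 or with voom, and LBD37 did not without all libraries of replicate 1, 2 or 3 or with voom. Chalcone synthase (CHS), the entry enzyme, had 315, 161 and 32.4 RPKM at 30 min, against 519, 201 and 288 RPKM at 0 min (adjusted p = 0.35), and its groups overlapped.

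Few genes of photosynthesis and carbon metabolism passed. None of 24 Calvin-Benson cycle genes, 20 antenna protein genes, 19 starch synthesis genes or 6 genes of the glucose 6-phosphate shunt in chloroplasts passed. The median log2 differences of these lists were −0.26, −0.23, −0.07 and −0.11, where that of all genes was 0.03. On this scale none of the Calvin-Benson genes had a positive log2 difference, and over the list the median was −0.05, −0.05 and −0.69 in replicates 1, 2 and 3. PRK, which encodes phosphoribulokinase, had 1395, 1145 and 754 RPKM at 30 min, against 1695, 1120 and 1480 RPKM at 0 min (adjusted p = 0.5), with groups that overlapped. GLUTR2, a glutamyl-tRNA reductase at the entry to chlorophyll synthesis, was the gene called higher of 15 in that pathway and had 8.72, 16.4 and 47.2 RPKM at 30 min, against 4.11, 4.47 and 4.67 RPKM at 0 min (log2 difference 1.89 ± 0.52 SE, adjusted p = 0.023). The list gave 1, 0 and 0 calls without replicates 1, 2 and 3 and 0 with voom. Its 1 call of 15 lies near the 5.08% of all genes called higher and says little about the list.

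Of the transporter and shunt genes that the study puts forward, none passed at 30 min. GPT2, the glucose 6-phosphate/phosphate translocator gene that is induced in high light, had 2.49, 3.82 and 5.38 RPKM at 30 min, against 0.43, 0.07 and 1.08 RPKM at 0 min (log2 difference 1.69 ± 0.60 SE, adjusted p = 0.095), with groups that did not overlap. With the plant as a replicate block, GPT2 passed (adjusted p = 0.0279), and so it did with a pseudocount of 0.1 (log2 difference 3.01, adjusted p = 0.012) and with the 6 libraries alone in the fit (adjusted p = 0.0447). TPT, the triose phosphate translocator gene of the chloroplast envelope, had 619, 767 and 449.9 RPKM at 30 min, against 914, 921 and 596 RPKM at 0 min (adjusted p = 0.55). The cytosolic GAPN had 217, 158 and 142 RPKM at 30 min, against 225, 194 and 190.4 RPKM at 0 min (adjusted p = 0.59). None of the 3 chloroplast glucose 6-phosphate dehydrogenase genes passed, with log2 differences of −0.80, −0.24 and −0.32 for G6PDH1, G6PDH2 and G6PDH3 and adjusted p = 0.4, 0.76 and 0.71. In sucrose synthesis, CYTOTPI, cytosolic triose phosphate isomerase, was the gene called of 18, with 464, 465 and 630.2 RPKM at 30 min, against 293, 291 and 357 RPKM at 0 min (log2 difference 0.72 ± 0.19 SE, adjusted p = 0.021), and 0 genes of the list were called higher without replicate 1, 2 or 3. SPS4, a sucrose phosphate synthase, had 74, 31.3 and 42.2 RPKM at 30 min, against 115, 66 and 105 RPKM at 0 min (adjusted p = 0.17, or 0.0491 without replicate 1), and SPP2, a sucrose phosphatase, had log2 difference −0.18 (adjusted p = 0.75). In starch degradation, BAM5, a beta-amylase outside the chloroplast, was called of 15, with 39.8, 30.3 and 46 RPKM at 30 min, against 7.05, 6.02 and 1.55 RPKM at 0 min (log2 difference 2.90 ± 0.76 SE, adjusted p = 0.017), a call lost without replicate 2 or 3. None of 9 glycolysis genes and 17 plastid and sugar transporter genes passed, and with the block 1 transporter gene did. EXL2 was called of 11 low-energy genes (log2 difference 2.44), and with the block 1 of them was lower. The EXL2 call was lost without replicate 3, with no filter, with voom and in other fits. The single calls of CYTOTPI, BAM5 and EXL2 are set against 5.08% of all genes called higher. In lists this short, 1 call says little about the list. The reference genes ACT2 and IDI2 had log2 differences of −0.21 and 0.19 (adjusted p = 0.71 and 0.5), and none of the 5 reference genes passed.

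The 30 min leaves were also compared with those taken at the neighbouring times. Between 30 and 15 min, 2 genes of 13817 (0.0145%) passed, both lower at 30 min, and 18 passed with the plant as a replicate block (10 higher, 8 lower), while 1254 had an unadjusted p under 0.05. They were AT5G08780, annotated as a winged-helix factor, with 2.02 ± 0.24 RPKM at 0 min, 11.8 ± 2.02 at 15 min, 4.46 ± 1.24 at 30 min, 3.36 ± 0.583 at 60 min, 3.9 ± 0.7 at 120 min and 3.1 ± 0.55 at 240 min (30 minus 15 min: log2 difference −1.24, adjusted p = 0.0029), and AT4G22360, annotated as a SWIB-domain protein (log2 difference −0.83, adjusted p = 0.017). Between 60 and 30 min, 0 genes (0%) passed in limma on log2(RPKM + 1), 815 had an unadjusted p under 0.05, voom on the recovered reads called 0, and with the block 1 gene passed. The 30 min libraries are shared by all these comparisons, so the mean levels are given side by side. WRKY53, a factor of early defence and senescence named after its values had been seen, had 1.52 ± 0.249 RPKM at 0 min, 53.6 ± 34.6 at 15 min, 27.5 ± 13.1 at 30 min, 8.32 ± 3.79 at 60 min, 9.13 ± 14.3 at 120 min and 12.2 ± 8.59 at 240 min. TCH2 had 21.9 ± 4.67 RPKM at 0 min, 108 ± 9.34 at 15 min, 73.8 ± 6.94 at 30 min, 29.2 ± 10.6 at 60 min, 10.4 ± 3.29 at 120 min and 7.4 ± 0.586 at 240 min. Both had their highest mean at 15 min. JAZ1 had 2.63 ± 1.34 RPKM at 0 min, 114 ± 34.3 at 15 min, 511 ± 454 at 30 min, 604 ± 436 at 60 min, 217 ± 225 at 120 min and 66.7 ± 44.3 at 240 min, and RD29A had 14.2 ± 4.99 RPKM at 0 min, 55.8 ± 18.6 at 15 min, 172 ± 70.0 at 30 min, 459 ± 248 at 60 min, 296 ± 129.9 at 120 min and 256 ± 229 at 240 min, both with the highest mean at 60 min. VSP2 had 1.13 ± 0.356 RPKM at 0 min, 7.81 ± 5.16 at 15 min, 111 ± 83.2 at 30 min, 322 ± 309 at 60 min, 1636 ± 1336 at 120 min and 1206 ± 809.5 at 240 min, and GPT2 had 0.527 ± 0.512 RPKM at 0 min, 0.607 ± 0.656 at 15 min, 3.9 ± 1.45 at 30 min, 42.4 ± 22.4 at 60 min, 163 ± 139 at 120 min and 34.4 ± 32.7 at 240 min, which puts their highest means at 120 min. BBX14 had 85.2 ± 53.2 RPKM at 0 min, 36.2 ± 16.8 at 15 min, 6.14 ± 0.58 at 30 min, 1.84 ± 0.745 at 60 min, 7.1 ± 6.18 at 120 min and 19.1 ± 7.19 at 240 min, lowest at 60 min. WRKY40 had 0.447 ± 0.191 RPKM at 0 min, 60.7 ± 62 at 15 min, 108 ± 141 at 30 min, 82.9 ± 78.6 at 60 min, 36.5 ± 40.1 at 120 min and 14 ± 11.5 at 240 min, and cannot be ordered between 15 and 60 min. At 30 min the SD was of the order of the mean for JAZ1, VSP2 and WRKY40 and smaller for the other genes. In the main fit, AT5G08780 and AT4G22360 alone passed between 30 and 15 min, and no gene passed between 60 and 30 min. The order of the other means at these times, and so the time of a highest mean, is not established.

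**Figure D5:**
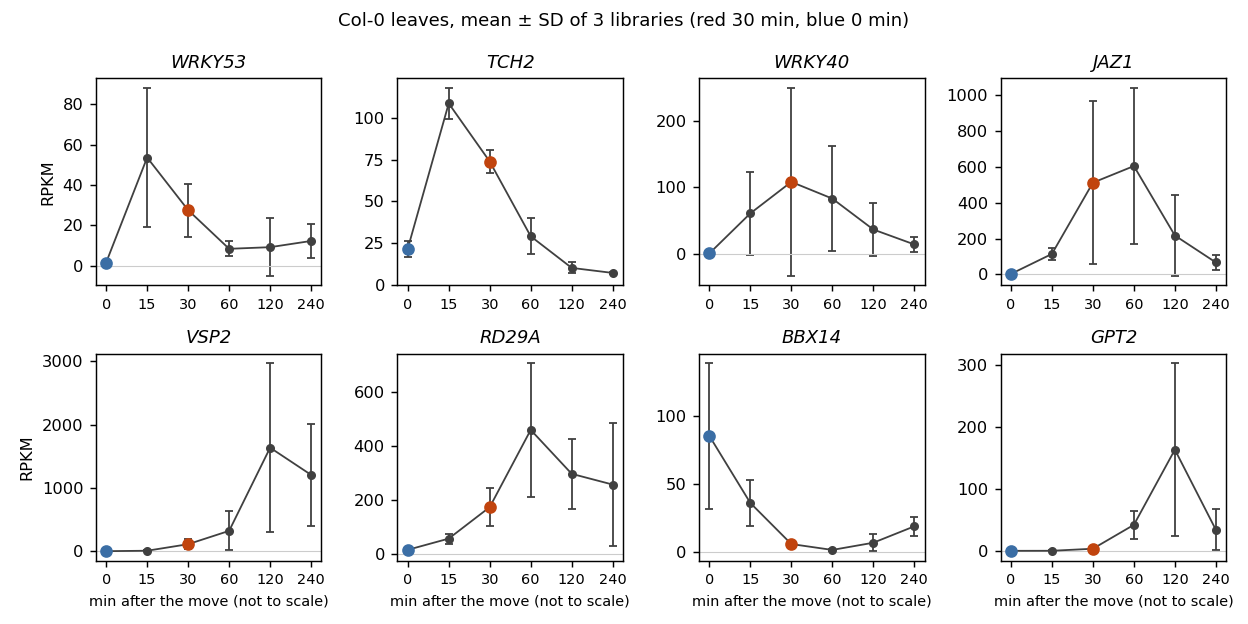
Mean RPKM ± SD of 3 Col-0 leaves for 8 genes at 0 to 240 min after the move (time axis not to scale), with 30 min in red and 0 min in blue. By their means, TCH2 and WRKY53 were highest at 15 min, JAZ1 and RD29A at 60 min, VSP2 and GPT2 at 120 min, and BBX14 was highest at 0 min. None of the 8 genes passed between 30 and 15 min or between 60 and 30 min in the main fit.

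WS leaves taken at 30 min were compared with their own 0 min leaves. There 1208 genes (8.74%) passed, 879 higher and 329 lower at 30 min. Of the 702 genes higher in Col-0, 691 had a positive and of the 244 lower ones 240 a negative log2 difference in WS. Genes called higher in both numbered 503, which is 71.7% of the Col-0 and 57.2% of the WS calls, and those called lower in both numbered 146, or 59.8% and 44.4%. No gene was called in opposite directions. The WS counts leaned on single replicates as well, with 180 genes without WS replicate 1 and 485 without WS replicate 3. Of jasmonate synthesis, JAZ and inactivation and output genes, 10, 10 and 7 were higher in WS. JAZ1 averaged 511 ± 454 RPKM at 30 min and 2.63 ± 1.34 RPKM at 0 min in Col-0 (± SD, n = 3) and 345 ± 227 RPKM at 30 min and 2.29 ± 1.71 RPKM at 0 min in WS (WS log2 difference 6.47, adjusted p = 2.8e-05). BBX14 averaged 6.14 ± 0.58 RPKM at 30 min and 85.2 ± 53.2 RPKM at 0 min in Col-0 and 2.99 ± 1.15 RPKM at 30 min and 70.8 ± 6.15 RPKM at 0 min in WS (WS log2 difference −4.21, adjusted p = 1.8e-05).

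The responses of both ecotypes at 30 min were also set against each other, Col-0 minus WS. A single gene of 13817 (0.00724%) passed the interaction test, AT3G44790, and 257 had an unadjusted p under 0.05. No gene passed without replicate 2 or 3 of either ecotype. AT3G44790, annotated as a TRAF-like protein, averaged 0.01 ± 0.0173 RPKM at 30 min and 0.07 ± 0.0693 RPKM at 0 min in Col-0 and 8.31 ± 1.63 RPKM at 30 min and 55.2 ± 29 RPKM at 0 min in WS. It fell in WS (log2 difference −2.49, adjusted p = 8.7e-06). In Col-0 it was near 0 at both times and was tested only for its level in WS, so no fall in Col-0 could have been measured, and the test reflects a difference in level between the ecotypes. AT1G63860, annotated as a disease resistance protein of the TIR-NBS-LRR class, averaged 12.7 ± 3.22 RPKM at 30 min and 1.67 ± 0.185 RPKM at 0 min in Col-0 (log2 difference 2.34 ± 0.29 SE, adjusted p = 5.5e-05) and 0.243 ± 0.102 RPKM at 30 min and 0.09 ± 0.0755 RPKM at 0 min in WS, and its difference in response did not pass (log2 2.15, adjusted p = 0.13). AT1G53080, a legume lectin gene, was next (log2 −1.99, adjusted p = 0.3). GPT2 averaged 3.9 ± 1.45 RPKM at 30 min and 0.527 ± 0.512 RPKM at 0 min in Col-0 and 48.1 ± 15.3 RPKM at 30 min and 1.26 ± 0.267 RPKM at 0 min in WS. In WS it passed against 0 min (log2 difference 4.40, adjusted p = 4.1e-05) and in Col-0 it did not in the main fit. It did pass in Col-0 with a pseudocount of 0.1, under the block and with the 6 libraries alone, as given above. The difference between the responses did not pass (log2 −2.71, adjusted p = 1).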

How the data were processed

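Messenger RNA of 36 single leaves was sequenced as stranded single reads. Reads were trimmed by the authors (Trimmomatic 0.32), checked (FastQC), mapped to TAIR10 (STAR 2.3.0e) and counted by gene (featureCounts), and RPKM values, the unit used here, were deposited. The annotation release and the strand setting of the counting are not given, so overlapping and antisense genes are uncertain. The labels give 20 for the time that titles and methods give as 30 min, and 30 min was used. Named sample columns left unused numbered 0. Depth was recovered from the steps of the RPKM values, of which at least 97.1% in each of the 6 libraries lay within 0.1 read of a whole number.

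All 36 libraries, on the scale log2(RPKM + 1), entered a single limma fit (version 3.58.1 under R 4.3.3, with an intensity trend) of 12 groups with 24 residual degrees of freedom, for genes with a reading above 7 RPKM. A log2 difference on this scale understates changes of low genes. Tests were 2-sided and adjusted by Benjamini and Hochberg over all genes tested, at 0.05. Alternatives were a pseudocount of 0.1, other filters, median-of-ratios and TPM scaling, other sets of libraries, each plant or library left out, the plant as a replicate block, no trend, a 2-fold cutoff, and voom on recovered reads. The main test, which gave the calls and adjusted p values unless stated otherwise, was unpaired. Replicate numbers served as pairs in the block and in the counts within replicate numbers. The methods take leaves from the same plants, and same-numbered leaves at 30 and 0 min deviated together from their group means (correlations 0.272, 0.205 and 0.236). Over all pairs of times in Col-0 such correlations ranged from −0.427 to 0.544 (median 0.0773), with a share of 0.489 over 0.1.

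The comparison, its gene lists and tests were chosen with earlier results of these data known. Genes named were the 16 largest rises and 10 largest falls among called genes with groups that did not overlap, up to 4 genes a list by smallest adjusted p, 11 genes that the study names, and the 3 genes ranked first in the test between ecotypes. Others are marked as chosen later or serve as markers. Gene names, coordinates and promoters are from RefSeq's TAIR10.1.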

Additional observations from a re-analysis of the deposited data

Results flagged for a closer look

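AT3G44790 passed the interaction test of ecotype and time at 30 min, with a log2 value of 2.41 for Col-0 minus WS (adjusted p = 0.039, limma). Transcripts averaged 0.01 ± 0.0173 RPKM at 30 min and 0.07 ± 0.0693 RPKM at 0 min in Col-0 and 8.31 ± 1.63 RPKM at 30 min and 55.2 ± 29 RPKM at 0 min in WS (± SD, n = 3 each), and all 6 Col-0 readings lay at or under 0.15 RPKM, so that no fall could have been measured there. The value reflects a gene expressed in WS and hardly in Col-0, not a measured difference in response. It was the 1 gene of 13817 that passed, 0 genes passed without replicate 2 or 3 of either ecotype, and the groups of 3 were too small for a search for outlying samples.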

How the results depend on the processing

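The count of genes differing in Col-0 between 30 and 0 min, 946 as reported, was 579 with Col-0 libraries alone in the fit, 612 with voom on the recovered reads and 1135 with the replicate block (819 higher, 316 lower), and ranged from 201 (without Col-0 replicate 3) to 1045 (without the 30 min library of replicate 2) with plants or libraries left out. Of the calls, 74.2% were higher as reported and 64.8% with no filter on low values. The 2 calls of 30 against 15 min became 5 for genes with at least 1 RPKM in 3 libraries, 12 with no filter, 1 in TPM, 0 with Col-0 alone in the fit, 18 under the block, 1 beyond 2-fold, 1 without Col-0 replicate 1 and 0 without replicate 2 or 3. The 0 calls of 60 against 30 min became 7 with no filter, 1 under the block, and 4, 1 and 0 without Col-0 replicates 1, 2 and 3. The 1208 calls in WS became 655 with voom, and 180 to 973 with a plant left out. The 1 gene that passed the interaction test of the ecotypes did not pass with a pseudocount of 0.1, in TPM or with voom (0 genes each), and 2 genes passed with no filter, 1 without replicate 1 of either ecotype and 0 without replicate 2 or 3 of either. For each of these shifts the cause was not tested. Of 94 called genes given by value or difference, 62 lost the call without Col-0 replicate 3, 48 without its 30 min library, 37 with voom, 32 without replicate 2, 23 with Col-0 alone, 22 with the 6 libraries alone, 14 with no filter, 4 each with a pseudocount of 0.1 and in TPM, and 1 under the block. None of the 94 reversed, and 22 kept the call under every alternative run, among them JAZ1, JAZ9, LOX3, LOX4, OPR3, OPCL1, WRKY18, MYB44, TCH2, ERD10, RD29A, BBX14 and BBX15. Calls were gained by 7 further genes given with a pseudocount of 0.1 (among them GPT2, CYP94B1 and CYP94B3), by 4 each under the block, with the filter on the 6 libraries, with the 6 libraries alone and without the 30 min library of replicate 2, by 3 each in TPM and without replicate 1, and by 1 each with median-of-ratios scaling and without replicate 3. Among genes that were not called, 4 changed sign with a plant or library left out. Their log2 differences ranged from −0.44 to 0.034 for ACT2 (AT3G18780), from −1.64 to 0.013 for ELIP1 (AT3G22840), from −0.042 to 0.14 for JAZ11 (AT3G43440) and from −0.68 to 0.053 for G6PDH2 (AT5G13110). Apart from the changes given beside the results, the replicate block changed no call of a named gene. With 3 leaves a group, changes within the spread of the leaves were not detectable, and a gene that missed the threshold is not shown to be unchanged.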
